A study of Mus musculus with 15 samples.

Results

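The levels of 9 genes that act in or on the Wnt pathway were compared across 5 sorted populations of mouse mammary epithelial cells. They were the R-spondin receptors Lgr4, Lgr5 and Lgr6, the Frizzled receptors Fzd1 and Fzd7, the secreted proteins Wif1, Dkk3 and Sfrp1, and the feedback gene Axin2. The genes were chosen by name, with earlier results of these data known. Each was read from probe sets that carried its symbol and no other, using the brightest of them by mean log2 intensity across all 15 arrays. The 9 genes were among 18193 genes with such a probe set, and all 9 passed the filter that left 12107 genes for testing, which asked for an intensity above the array's median on at least 3 of 15 arrays. Lgr5 and Wif1 passed it on 3 arrays, all of them MaSC arrays, so a difference between MaSCs and the other populations was built into their selection and is given as a description with no test.

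All 15 samples came from female C57BL/6 mice, with 3 arrays per population. Alveolar luminal cells (ALs) were YFP+ cells free of lineage markers, sorted from midgestation Wap-Cre;R26Y females. The second population, ALPs (alveolar luminal stem/progenitors), were YFP+ cells gated in the same way from adult virgins of that genotype. Cre was driven there by the promoter of the milk protein gene Wap and switched on a YFP reporter, and the mark stays on in all descendants of a marked cell. The other populations came from 3 suspensions of adult virgin wild-type glands and were sorted on surface proteins: basal cells enriched for mammary stem cells (MaSCs, Lin-CD24+CD29hi), luminal progenitors (LPs, Lin-CD24hiCD29+CD61+) and mature luminal cells (MLs, Lin-CD24hiCD29+CD61-). The lineage gate was set to remove CD31+, CD45+ and TER119+ cells. Whether the AL and ALP arrays came from separate animals is not stated in the labels, so the p-values measure the spread between these arrays, which may be partly technical. The labels also do not say whether MaSC, LP and ML arrays with the same replicate number share a suspension. The main fit did not pair them, and a fit with the replicate number as a block is given below.

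Wnt proteins bind Frizzled receptors together with the co-receptors Lrp5 and Lrp6, and the signal keeps β-catenin from being degraded, so that it reaches the nucleus and acts with transcription factors of the TCF/LEF family. Frizzled receptors are cleared from the cell surface by the ubiquitin ligases Rnf43 and Znrf3, and R-spondins, bound by Lgr4, Lgr5 or Lgr6, hold these ligases back. Wif1 and Sfrp1 bind Wnt proteins outside the cell, while Axin2 is both a widely used target gene of β-catenin and a scaffold of the complex that degrades it. In the mammary gland, Wnt signalling is known for its roles in basal stem cells and in side branching and alveolar growth.

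Values are intensities in arbitrary units on a linear scale, and differences are log2 differences between population means, tested with limma across all 12107 genes at a Benjamini-Hochberg adjusted p of 0.05. Arrays of 1 population correlated at 0.984 or more in AL, 0.901 in ALP, 0.943 in MaSC, 0.976 in LP and 0.979 in ML, and array medians lay between 136.8 and 209.9. The mean log2 intensity of 12 basal markers was highest in MaSC (12.74 to 12.93). That of 7 milk protein genes was highest in AL (12.8 to 13.23, against 8.12 to 10.26 in ALP), although Csn3 had means of 17100 in LP and 16300 in AL. That of 6 hormone-sensing genes was highest in ML (11.38 to 11.83), although Tnfsf11 had means of 941 in AL and 73.6 in ML. The hormone-sensing mean was 10.67, 10.27 and 9.09 on MaSC replicates 1, 2 and 3, against 8.86 to 9.91 in LP. The mean of 8 luminal progenitor genes was highest in ALP (12.32 to 12.43), followed by LP (12.13 to 12.31). ALP replicate 3 stood apart. Its mean over the basal markers was 11.24, against 9.06 and 8.87 on the other ALP arrays, and it also had the highest means for 11 immune markers (11.36, against 7.15 and 7.15) and 8 endothelial markers (11.08, against 8.06 and 9.06). The mean over 14 fibroblast markers was between 10.7 and 11.27 on the AL arrays, 11.57 and 13.05 on the ALP arrays, 9.52 and 10.03 on the MaSC arrays and 11.05 and 11.76 on the LP arrays, but between 5.12 and 5.9 on the ML arrays, where 11 of the 14 lay below the array median on every array. The part of these marker differences in the results below was not tested. In bulk samples, fewer cells of a type and less RNA per cell cannot be told apart.

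**Figure D1:**
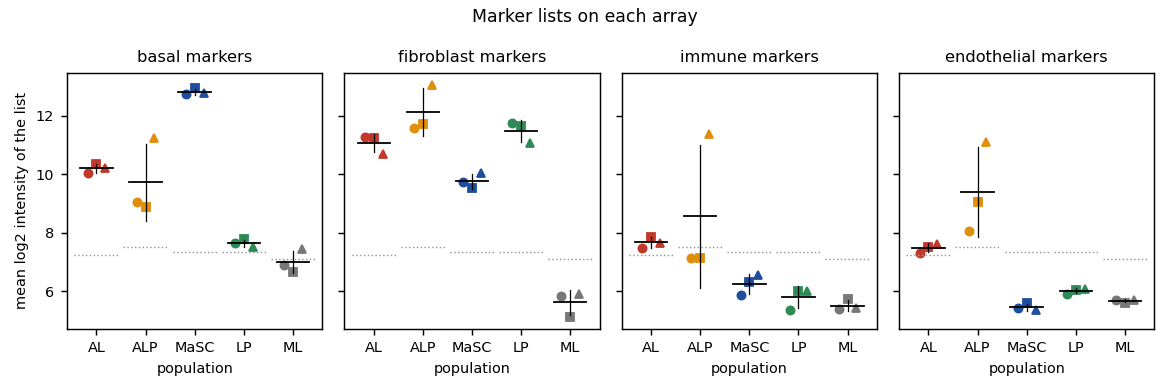
Mean log2 intensity of 4 lists of cell type markers on each of the 15 arrays (points; circle, square and triangle for replicates 1, 2 and 3), with the mean of each population (line) and its SD (bar). The dotted line is the log2 of the population's mean array median. The basal list stands highest in MaSC (12.74 to 12.93), the fibroblast list is low in ML alone, and ALP replicate 3 lies above the other ALP arrays in all 4 panels.

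Of the 9 genes, 8 had their highest mean in MaSCs and 1, Axin2, in ALs. In ALs against ALPs, 1 gene was higher (18.7% of all genes tested were) and 2 were lower (21.2%). Against MaSCs, 0 were higher in ALs (31.3%) and 5 lower (28%), against LPs 3 were higher (21.3%) and 1 lower (24.2%), and against MLs 7 were higher (28.7%) and 0 lower (24.8%). In ALPs against MaSCs, 0 were higher (21.8%) and 7 lower (16.6%), against LPs 1 was higher (3.58%) and 0 lower (3.97%), and against MLs 6 were higher (21.1%) and 0 lower (15.6%). In MaSCs, 6 were higher than in LPs (15.7%) and 0 lower (23.1%), and 9 were higher than in MLs (27.1%) and 0 lower (32.5%). In LPs against MLs, 4 were higher (27.3%) and 0 lower (21.7%). The genes were chosen with earlier results of these data known, so the counts beside the shares over all genes are a description. These counts include Lgr5 and Wif1. Over the other 7 genes, 0 were higher and 3 lower in ALs than in MaSCs, 0 higher and 5 lower in ALPs than in MaSCs, 4 higher and 0 lower in MaSCs than in LPs, and 7 higher and 0 lower in MaSCs than in MLs. In comparisons without MaSCs, the calls of Lgr5 and Wif1 were between values below the array median. There the other 7 genes gave 1 higher and 1 lower for AL against ALP, 2 and 1 for AL against LP, and 6 and 0 for AL against ML. They gave 0 and 0 for ALP against LP, 5 and 0 for ALP against ML, and 4 and 0 for LP against ML. The median log2 difference of the 9 genes was 2.87 for MaSC minus LP and 4.1 for MaSC minus ML, against -0.07 over all genes in both comparisons. Lgr5 and Wif1 raise these medians through their selection. Among the other 7 genes the middle value was that of Fzd1, 1.06 for MaSC minus LP and 2.81 for MaSC minus ML. For AL minus ML the median of the 9 genes was 1.64, against 0.03. Without ALP replicate 3, the number of the 9 genes that passed between ALs and ALPs was 5 in place of 3, with Dkk3 and Wif1 added. Of the 5, Lgr5 and Wif1 lay below the array median in both populations. No share over all genes was set beside this count, which is a description.

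**Figure D2:**
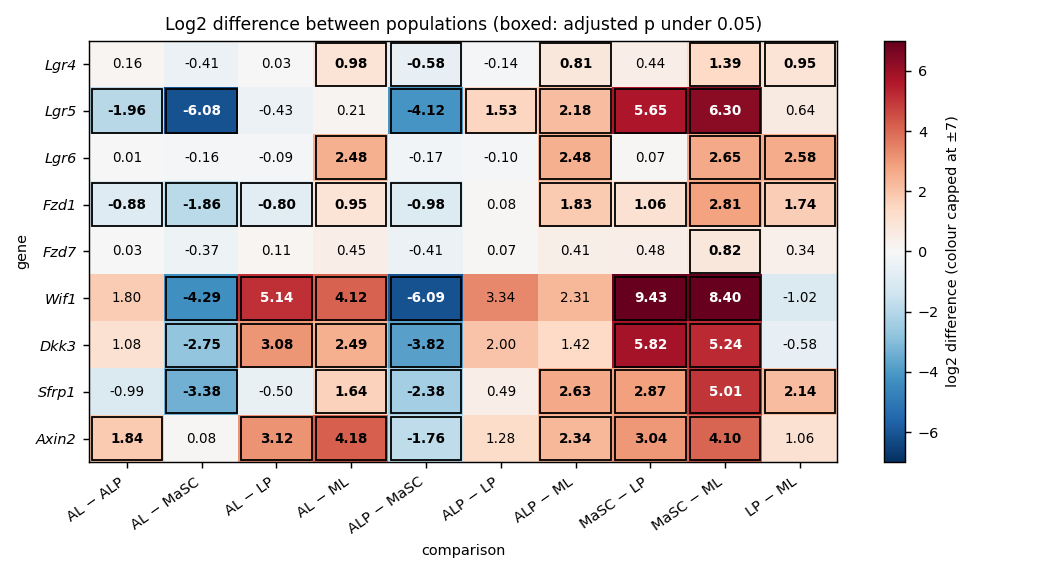
Log2 differences of the 9 genes (rows) in the 10 comparisons of populations (columns, first minus second). Boxed cells had an adjusted p under 0.05 (limma, 12107 genes). The columns that set MaSC above LP or ML hold the largest positive values and Axin2 is near 0 (0.08) in AL minus MaSC. Fitted values of Lgr5 and Wif1 in populations below the array median depend on the floor set for low values, and their boxes in comparisons with MaSC follow from the filter and are no test.

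**Figure D3:**
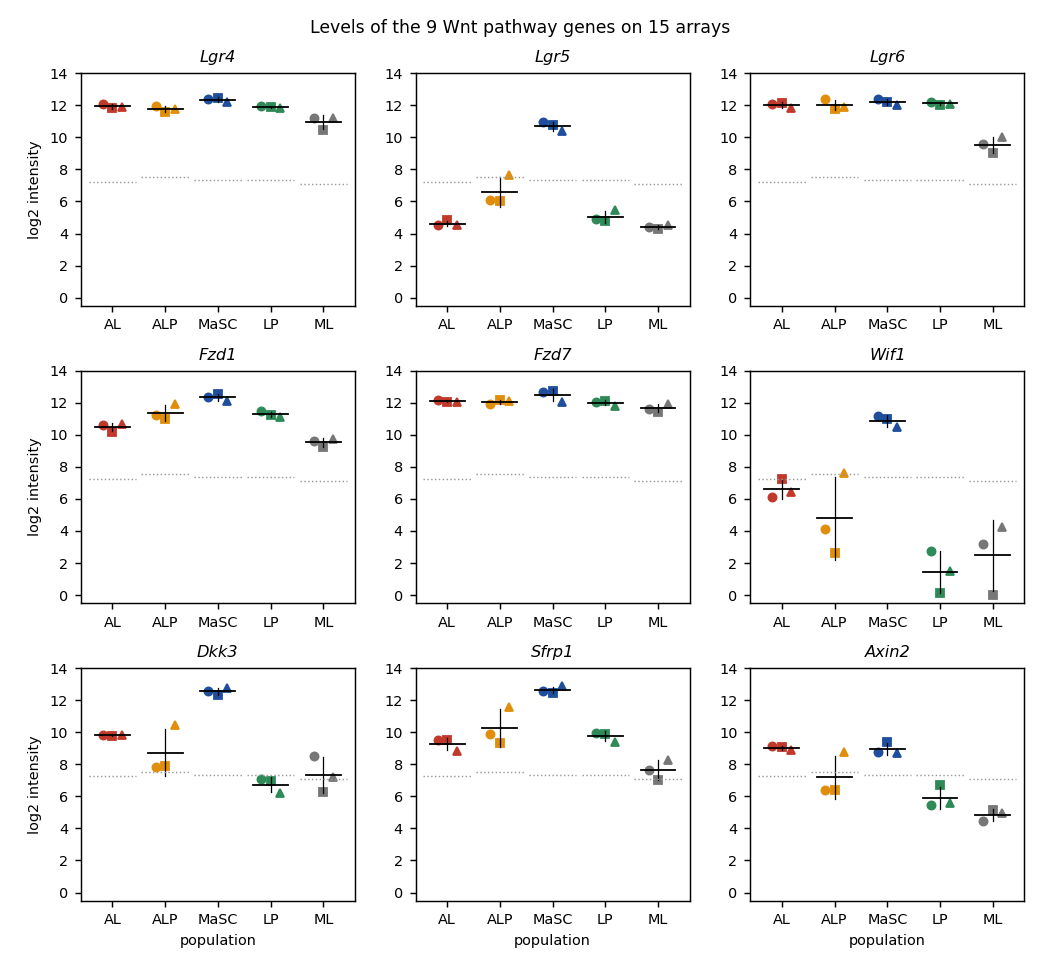
Log2 intensity of each of the 9 genes on the 15 arrays (points; circle, square and triangle for replicates 1, 2 and 3), with the population mean (line) and its SD (bar). The dotted line is the log2 of the population's mean array median. Judged by each array's own median, Lgr4, Lgr6, Fzd1 and Fzd7 lie above it everywhere, while Lgr5 and Wif1 do so in MaSC only and Axin2 does so on all AL and MaSC arrays and ALP replicate 3. Points of Lgr5 and Wif1 on ALP replicate 3, and of Wif1 on AL replicate 2, lie above the dotted line but below their own array's median.

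The 3 Lgr genes, all receptors for R-spondins, had 3 different patterns. Lgr4, the most widely expressed of them in the mouse, had intensities of 4350, 3651 and 3781 in ALs, 3948, 3091 and 3490 in ALPs, 5399, 5641 and 4645 in MaSCs, 3997, 3874 and 3649 in LPs, and 2354, 1428 and 2351 in MLs. All ML arrays lay below every other array, and the MaSC arrays lay above all the rest. Lgr4 was lower in MLs than in every other population, by 1.97-fold against ALs (adjusted p = 0.00065), 1.75-fold against ALPs (0.00425), 2.62-fold against MaSCs (6.43e-05) and 1.93-fold against LPs (0.00113). The step to MaSCs was smaller: the difference passed for ALP minus MaSC (-0.58 ± 0.18 SE, adjusted p = 0.0236), but not for AL minus MaSC (-0.41, 95% confidence interval -0.8 to -0.03, adjusted p = 0.0621) or MaSC minus LP (0.44, 0.06 to 0.83, adjusted p = 0.067). The call for ALP minus MaSC was lost without MaSC replicate 1 (adjusted p = 0.0512), MaSC replicate 2 (0.0736) or ALP replicate 2 (0.0866).

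Lgr5, a marker of stem cells in the intestine and other tissues, was high in MaSCs and at the lower end of the scale elsewhere. Its intensities were 22.8, 28.3 and 23.1 in ALs, 66.6, 65.1 and 202.8 in ALPs, 1963, 1762 and 1340 in MaSCs, 30.2, 27 and 44.7 in LPs, and 20.8, 19.8 and 23.2 in MLs. Every array outside MaSC lay below its array's median intensity, and the lowest MaSC array was above the highest other array, ALP replicate 3. Where all 3 arrays of a population lay below their medians, a fold is given as a lower bound, set by the mean log2 intensity of the brighter population over the higher of the array median and the gene's own value. On that scale Lgr5 was at least 11-fold lower in ALs than in MaSCs, at least 9.11-fold lower in ALPs than in MaSCs, and at least 10.3-fold and 12.1-fold higher in MaSCs than in LPs and MLs. ALPs also passed the test as higher than LPs (adjusted p = 0.0299) and MLs (0.000845) and ALs as lower than ALPs (0.00145), at levels that were all below the array median. The call between ALPs and LPs was lost without LP replicate 1 (adjusted p = 0.0891) or LP replicate 2 (0.112).

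Lgr6, which marks stem cells of the hair follicle in mouse skin, had overlapping levels in all populations but MLs. It had intensities of 4411, 4507 and 3620 in ALs, 5371, 3483 and 3772 in ALPs, 5289, 4683 and 4074 in MaSCs, 4759, 4139 and 4425 in LPs, and 762.3, 513.9 and 1048 in MLs. The first 4 populations overlapped in every pair, and the highest ML array lay below the lowest of the other 12. Lgr6 was lower in MLs by 5.6-fold against ALs (adjusted p = 5.44e-06), 5.56-fold against ALPs (1.46e-05), 6.26-fold against MaSCs (4.6e-06) and 5.97-fold against LPs (1.08e-05). Among the other populations the log2 differences lay between -0.17 and 0.07 and none passed, with 95% confidence intervals of -0.5 to 0.52 for AL minus ALP, -0.67 to 0.35 for AL minus MaSC and -0.6 to 0.42 for AL minus LP. A second, dimmer probe set of Lgr6 gave the same low value in MLs (LP minus ML 2.4, adjusted p = 3.36e-05) but was also 2.08-fold higher in ALs than in ALPs (adjusted p = 0.00712), which the main probe set was not (log2 difference 0.01, adjusted p = 0.98). The ML arrays that set Lgr6 apart were the arrays with the low fibroblast markers described above.

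The Frizzled receptors Fzd1 and Fzd7 also had their highest means in MaSCs, but differed in how much they varied. Fzd1 had intensities of 1567, 1161 and 1603 in ALs, 2361, 2027 and 3821 in ALPs, 5135, 6097 and 4459 in MaSCs, 2846, 2392 and 2256 in LPs, and 786.9, 599.8 and 865.3 in MLs. Only the ALP and LP arrays overlapped. Fzd1 was 3.63-fold lower in ALs than in MaSCs (adjusted p = 4.4e-05), 1.84-fold lower than in ALPs (0.0106), 1.74-fold lower than in LPs (0.0154) and 1.93-fold higher than in MLs (0.00485). The difference between ALs and LPs was lost without LP replicate 1 (adjusted p = 0.0569) or AL replicate 2 (0.066). MaSCs exceeded LPs by 2.09-fold (adjusted p = 0.00387) and MLs by 6.99-fold (3e-06), and LPs exceeded MLs by 3.35-fold (0.000131). These values held for the brightest probe set. The other Fzd1 probe set was above the array median on 15 of 15 arrays too, yet its means ran only from 501.7 in MaSCs to 327.9 in MLs, and of the 10 comparisons it passed in MaSC minus ML (0.61, adjusted p = 0.0195) and AL minus MaSC (-0.59, adjusted p = 0.023).

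Fzd7, a receptor linked to basal mammary cells in the mouse, was the most even of the 9 genes. Its intensities were 4710, 4251 and 4286 in ALs, 3925, 4672 and 4369 in ALPs, 6434, 6946 and 4170 in MaSCs, 4265, 4463 and 3624 in LPs, and 3108, 2778 and 3923 in MLs. The third MaSC array lay within the range of the other populations. MaSCs exceeded MLs by 1.77-fold (adjusted p = 0.00251), and none of the other 9 comparisons passed. For AL minus MaSC the difference was -0.37 (95% confidence interval -0.77 to 0.03, adjusted p = 0.0989). Without MaSC replicate 3 it passed, as did MaSC minus LP, LP minus ML, AL minus ML, ALP minus ML and ALP minus MaSC.

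The promoters of Fzd1 and Fzd7 are shown because they were the ones that held a TCF/LEF core motif among the 6 of the 9 genes found in the RefSeq promoter table (GRCm38.p6), and those of Wif1 and Axin2 as a secreted inhibitor found above the array median in MaSCs alone and a target gene with overlapping levels in ALs and MaSCs. Each runs 5′ to 3′ over 250 bases before and 50 bases after the transcription start. Capitals mark the motif, CTTTGA or CTTTGT on either strand (TCAAAG or ACAAAG when read from the other strand). The windows are chr5:4758167-4758466, minus strand (Fzd1), chr1:59481897-59482196, plus strand (Fzd7), chr10:121033754-121034053, plus strand (Wif1), and chr11:108920099-108920398, plus strand (Axin2).
Fzd1: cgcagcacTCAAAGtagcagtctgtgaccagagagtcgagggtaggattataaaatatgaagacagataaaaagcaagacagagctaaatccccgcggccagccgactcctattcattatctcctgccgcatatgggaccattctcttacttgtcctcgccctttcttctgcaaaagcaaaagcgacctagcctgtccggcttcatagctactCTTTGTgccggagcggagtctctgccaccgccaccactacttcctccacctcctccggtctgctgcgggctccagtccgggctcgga
Fzd7: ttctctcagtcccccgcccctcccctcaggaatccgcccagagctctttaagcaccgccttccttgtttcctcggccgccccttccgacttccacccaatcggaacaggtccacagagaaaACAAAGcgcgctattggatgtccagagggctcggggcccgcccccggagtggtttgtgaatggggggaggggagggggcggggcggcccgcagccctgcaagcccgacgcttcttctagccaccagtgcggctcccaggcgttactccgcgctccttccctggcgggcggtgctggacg
Wif1: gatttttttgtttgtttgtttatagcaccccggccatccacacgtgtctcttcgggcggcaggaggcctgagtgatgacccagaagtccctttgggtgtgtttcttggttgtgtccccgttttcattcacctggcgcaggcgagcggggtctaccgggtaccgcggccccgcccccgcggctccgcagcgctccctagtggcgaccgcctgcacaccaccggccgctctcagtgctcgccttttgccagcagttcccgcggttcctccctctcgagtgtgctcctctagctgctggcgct
Axin2: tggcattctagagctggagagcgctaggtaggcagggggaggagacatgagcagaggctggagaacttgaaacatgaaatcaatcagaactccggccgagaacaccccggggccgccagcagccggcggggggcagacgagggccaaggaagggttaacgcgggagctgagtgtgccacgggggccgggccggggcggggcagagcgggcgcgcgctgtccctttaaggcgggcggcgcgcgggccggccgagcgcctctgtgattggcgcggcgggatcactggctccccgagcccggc
Fzd1 held matches starting 242 and 37 bases before the start and Fzd7 held 1 match 129 bases before it. The windows of Wif1, Axin2, Lgr4 and Lgr6 held none. Of 32851 promoter windows of the same length in the table, 31.2% held at least 1 match, against 2 of the 6 windows here.

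Each of the 3 genes for secreted proteins had MaSC arrays above all other arrays. Wif1, which binds Wnt proteins outside the cell, had intensities of 69.6, 152.6 and 84.6 in ALs, 17.4, 6.14 and 197.8 in ALPs, 2352, 2019 and 1409 in MaSCs, 6.76, 1.09 and 2.8 in LPs, and 9.16, 0.918 and 18.8 in MLs. All 12 arrays outside MaSC were below their array's median, and the AL arrays were nevertheless above every LP and ML array. Wif1 was at least 12.4-fold lower in ALs than in MaSCs, at least 10.3-fold lower in ALPs than in MaSCs, and at least 11.6-fold and 13.7-fold higher in MaSCs than in LPs and MLs, given as a description, as for Lgr5. Below the median, ALs passed as higher than LPs (adjusted p = 0.00589) and MLs (0.0154). The call against MLs was lost without ML replicate 2 (adjusted p = 0.0701) or AL replicate 2 (0.0519). The fitted size of these differences rests on values near 0: MaSC minus LP was 9.43 with intensities under 1 set to 1 and 6.61 with 16 added to each intensity. It ranged over 8.76 to 10.08 with LP replicate 2 or LP replicate 1 left out.

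Dkk3, a divergent member of the Dickkopf family whose part in Wnt signalling is less settled than that of its relatives, had intensities of 897.8, 887.1 and 909.2 in ALs, 231.3, 241.7 and 1380 in ALPs, 6091, 5176 and 6935 in MaSCs, 133.1, 123.8 and 72.9 in LPs, and 360.2, 76.5 and 147 in MLs. The AL arrays agreed within 1.02-fold and lay between MaSC and all LP and ML arrays. Dkk3 was 6.71-fold lower in ALs than in MaSCs (adjusted p = 0.00342), at least 5.53-fold higher than in LPs (0.00261) and 5.63-fold higher than in MLs (0.00676, or 8.47-fold without ML replicate 1). A second Dkk3 probe set kept the direction against MLs, 3.02-fold, but did not pass (adjusted p = 0.0563). MaSCs exceeded LPs by at least 37.1-fold (adjusted p = 6.35e-05) and MLs by 37.8-fold (5.4e-05), or 56.8-fold without ML replicate 1. ALs and ALPs did not differ by the test (1.08, 95% confidence interval -0.34 to 2.5, adjusted p = 0.209), and without ALP replicate 3 ALs were higher (1.93, adjusted p = 0.00961).

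Sfrp1, a secreted Frizzled-related protein that binds Wnt proteins, had intensities of 722.5, 724.2 and 444.9 in ALs, 946.8, 637.2 and 3043 in ALPs, 6143, 5710 and 7410 in MaSCs, 1013, 957 and 681.8 in LPs, and 197.7, 127.9 and 306.4 in MLs. The ML arrays lay below all others, and AL, ALP and LP overlapped. Sfrp1 was 10.4-fold lower in ALs than in MaSCs (adjusted p = 0.000124) and 3.11-fold higher in ALs than in MLs (0.014). MaSCs exceeded LPs by 7.33-fold (adjusted p = 0.000832) and MLs by 32.3-fold (9.56e-06), and LPs exceeded MLs by 4.4-fold (0.00382). The call of ALs over MLs was lost without ML replicate 2 (adjusted p = 0.0619) and with each of the 4 other Sfrp1 probe sets (adjusted p = 0.243 to 0.556), and that of LPs over MLs was lost with 3 of the 4 (0.0814 to 0.135). Those probe sets were dimmer and lay below the array median on all ML arrays, with MaSCs at least 3.48-fold to 26.8-fold above MLs.

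Axin2, alone among the 9 genes on their brightest probe sets, had a mean in ALs (525 ± 38.9, SD, n = 3) as high as in MaSCs (507 ± 143). The second Lgr6 probe set did so too, with means of 1056 in ALs and 759.7 in MaSCs (AL minus MaSC 0.5, adjusted p = 0.115). The intensities of Axin2 were 556.5, 536.7 and 481.5 in ALs, 85.8, 85.9 and 426.5 in ALPs, 434.7, 671.5 and 415.4 in MaSCs, 44, 103.5 and 47.7 in LPs, and 21.7, 35.9 and 31 in MLs. The 3 AL arrays fell inside the range of the MaSC arrays and above all 9 other arrays. The log2 difference AL minus MaSC was 0.08 ± 0.54 (SE), with a 95% confidence interval of -1.1 to 1.26 (adjusted p = 0.906), an interval that leaves room for a change of more than 2-fold in either direction. Axin2 was at least 3.23-fold higher in ALs than in LPs (adjusted p = 0.000754) and at least 3.81-fold higher than in MLs (5.74e-05), and at least 3.05-fold and 3.6-fold higher in MaSCs than in LPs (0.00112) and MLs (8.34e-05). All 4 of these differences passed in each of the 25 other settings tried. LPs and MLs lay below the array median and did not differ by the test (1.06, 95% confidence interval -0.12 to 2.24, adjusted p = 0.125). The other Axin2 probe set lay below the array median on all 15 arrays and gave no second reading.

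Between the populations marked by Wap-Cre, Axin2 was 3.58-fold higher in ALs than in ALPs (1.84 ± 0.54 SE, adjusted p = 0.0182). ALP replicate 3, at 426.5, lay apart from the other ALP arrays at 85.8 and 85.9. Without it the remaining ALP arrays were below their medians and ALs were at least 3.07-fold higher (adjusted p = 0.000239), and without ALP replicate 1 or ALP replicate 2 it was 1.45 on the log2 scale in both cases and did not pass (adjusted p = 0.0693 and 0.0713). ALP minus MaSC passed for Axin2 (-1.76, adjusted p = 0.0242) although ALP replicate 3 overlapped the MaSC arrays. That call was lost without MaSC replicate 2 (adjusted p = 0.0808), ALP replicate 1 (0.0779) or ALP replicate 2 (0.0973), and without ALP replicate 3 ALPs were at least 2.9-fold lower.

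The levels in ALs were set against the MaSC mean for each of the 9 genes and for the 12 basal markers, since the AL arrays held more basal marker signal than the LP and ML arrays. The 12 basal markers had AL means of 6.61% (Cnn1) to 61.8% (Oxtr, the oxytocin receptor) of their MaSC means, with a median of 13.2%, against 4.12% in LPs and 2.16% in MLs, where 4 of the 12 in each lay below the array median on all arrays. Axin2 was at 103%, outside that range, as were Lgr6 (89.3%), Fzd7 (75.5%) and Lgr4 (75.1%), which were also high in LPs (94.9%, 70.4% and 73.4%). Axin2 in LPs was below the array median. Dkk3 (14.8%), Sfrp1 (9.82%) and Fzd1 (27.6%) fell within the range of the basal markers on their brightest probe sets. The other Fzd1 probe set, with means of 338.6 in ALs and 501.7 in MaSCs, lay above that range. The second brightest Sfrp1 probe set (167.7 and 3697) lay below it, and the other Dkk3 probe set (590.4 and 5265) within the range. Wif1 and Lgr5 were below the array median in ALs and were not placed against it. Over the ALP arrays the median of the basal markers was 7.6% and 7.66% on replicates 1 and 2 and 31.6% on replicate 3. Cdh3 lay below the array median on all AL and ALP arrays, Cnn1 on ALP replicates 1 and 2 and Myh11 on ALP replicate 2. Their percents there are measured values below the array median and are not read as levels. How much of the levels in ALs and ALPs came from basal cells was not tested.

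**Figure D4:**
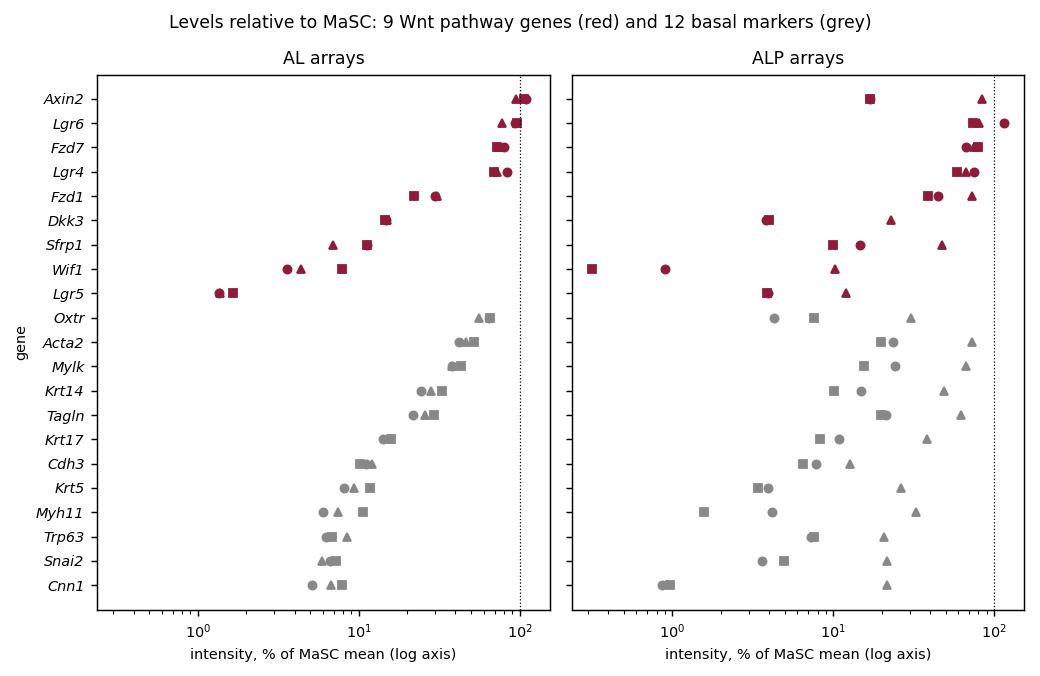
Intensity on each AL array (left) and ALP array (right) as a percent of the gene's mean over the 3 MaSC arrays (log axis; circle, square and triangle for replicates 1, 2 and 3), for the 9 Wnt pathway genes (red) and the 12 basal markers (grey). The dotted line is 100%. Points of Lgr5 and Wif1, and those of Axin2 on ALP replicates 1 and 2, are measured values below the array median and are not read as levels. The same holds for Cdh3 in both panels, Cnn1 on ALP replicates 1 and 2 and Myh11 on ALP replicate 2. In ALs, Axin2 stands at 94.9% to 110%, and in ALPs replicate 3 is the highest of the 3 arrays for Axin2, Dkk3, Sfrp1, Wif1, Lgr5, Fzd1 and all 12 basal markers.

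In ALPs, 6 of the 9 genes were highest on replicate 3. Lgr4, Lgr6, Fzd1 and Fzd7 differed from LPs by log2 -0.14, -0.1, 0.08 and 0.07, with adjusted p of 0.669 or more. For Lgr5, Wif1, Dkk3, Sfrp1, Fzd1 and Axin2, replicate 3, the array with the raised basal, immune and endothelial markers, was the highest, and for Fzd1 it lay above every LP array. Dkk3 was below MaSCs by 14.1-fold (adjusted p = 0.00107), or 25.5-fold without replicate 3, and Sfrp1 by 5.21-fold (0.00316), or 8.22-fold without it. Against MLs, Sfrp1 was 6.19-fold higher (adjusted p = 0.00164), or 3.93-fold without replicate 3, a call lost with 3 of its 4 other probe sets (0.0527 to 0.0858). Fzd1 was 3.55-fold higher than in MLs (0.000127), but 1.06-fold with its other probe set, which did not pass (adjusted p = 0.76). Axin2 was at least 1.07-fold higher than in MLs (0.00593), a bound that rests on replicate 3, without which Axin2 was below the array median in both populations. The ALP samples carry later sample numbers than the other 12 and no scan dates were used here, so a batch confined to ALPs cannot be told apart from the population.

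Other genes of the pathway were followed in 3 lists. Of 18 other receptors and receptor regulators, 17 were tested. In this list 11 genes were higher (15.7% of all genes tested were) and 0 lower (23.1%) in MaSCs than in LPs, with a median log2 difference of 0.61, against -0.07 over all genes. In ALs, 0 were higher (31.3%) and 9 lower (28%) than in MaSCs (median -0.65, against 0.05), and 2 were higher (18.7%) and 8 lower (21.2%) than in ALPs (median -0.27, against -0.02). Against MLs, 5 were higher in ALs (28.7%) and 7 lower (24.8%; median -0.19, against 0.03), so the list did not move one way against MLs as the 9 genes did. Rnf43 and Znrf3, the ligases that R-spondins hold back, had means of 952 and 1720 in ALs, 574 and 1420 in ALPs, 851 and 2110 in MaSCs, 552 and 1350 in LPs, and 525 and 907 in MLs. Ror1, a Wnt5a receptor, was 10.1-fold higher in LPs than in MLs (adjusted p = 0.00039, or at least 4.88-fold without ML replicate 3, when the remaining ML arrays were below their medians), with means of 688 and 84.3.

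Of 15 other secreted regulators, 8 were tested, and 7 were not above the array median on enough arrays. Rspo1, an R-spondin and so a ligand of the Lgr receptors, was the gene of this list with the largest difference. It had intensities of 4866, 5019 and 4858 in ALs, 402.2, 184.2 and 183 in ALPs, 75, 45 and 92.1 in MaSCs, 175.2, 270.6 and 374.7 in LPs, and 30.3, 14.2 and 86.3 in MLs. Every AL array was above every other array. In ALs Rspo1 was 20.6-fold higher than in ALPs (adjusted p = 0.000123), at least 30.4-fold higher than in MaSCs (4.3e-06), 18.8-fold higher than in LPs (0.000122) and at least 35.7-fold higher than in MLs (1.34e-06), and all 4 passed in each of the 25 other settings. Rspo4 was tested and passed in 0 comparisons, and Rspo2 and Rspo3 did not pass the filter. Sfrp2, a relative of Sfrp1, was 7.24-fold higher in LPs than in MLs (adjusted p = 2.92e-05), with means of 3930 and 564, the arrays between which all 14 fibroblast markers differed in the same direction.

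Of 21 genes that act inside the cell, serve as targets or export Wnt proteins, 20 had a probe set and 18 were tested. In ALs, 3 were higher (31.3% of all genes tested were) and 7 lower (28%) than in MaSCs (median -0.34, against 0.05 over all genes), and 5 were higher (28.7%) and 4 lower (24.8%) than in MLs (median 0.04, against 0.03), the shares against MLs being near those over all genes. Tnfrsf19 (Troy), a receptor of the TNF family known as a Wnt target in mouse intestinal stem cells, had intensities of 1007, 1041 and 813.6 in ALs, 38.5, 50.3 and 127.5 in ALPs, 15.6, 22.5 and 86 in MaSCs, 60.8, 38 and 43.4 in LPs, and 18.1, 28.4 and 39.8 in MLs. It passed the filter through its 3 AL arrays alone, so its difference is a description: it was at least 5.18-fold higher in ALs than in ALPs, 5.87-fold than in MaSCs, 5.84-fold than in LPs and 6.89-fold than in MLs. Tcf7l1, a TCF/LEF factor that mostly represses, had AL and MaSC arrays at overlapping levels, as Axin2 did. Its intensities were 1860, 2301 and 2012 in ALs, 724.3, 601.5 and 1394 in ALPs, 1389, 1431 and 2278 in MaSCs, 500.2, 653.4 and 601.1 in LPs, and 201, 224.4 and 264.2 in MLs. AL minus MaSC was 0.31 (adjusted p = 0.362), and ALs were 2.42-fold above ALPs (0.00398), 3.53-fold above LPs (0.000351) and 8.98-fold above MLs (3.64e-06). Nkd2, which binds Dishevelled and restrains the pathway, passed the filter through its 3 MaSC arrays alone, and was at least 3.05-fold higher in MaSCs than in LPs and 3.6-fold higher than in MLs, again as a description.

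**Figure D5:**
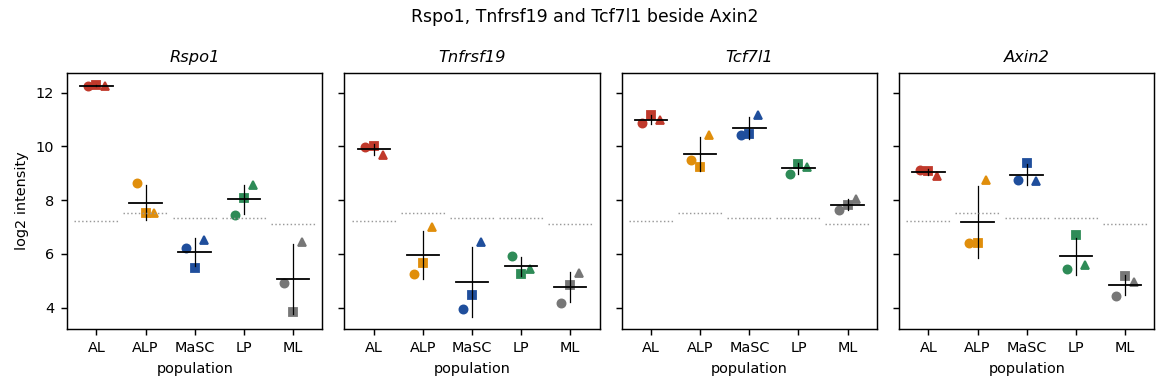
Log2 intensity of Rspo1, Tnfrsf19, Tcf7l1 and Axin2 on the 15 arrays (points; circle, square and triangle for replicates 1, 2 and 3), with population mean (line) and SD (bar). The dotted line is the log2 of the population's mean array median. Rspo1 and Tnfrsf19 stand highest on the 3 AL arrays, while Tcf7l1 and Axin2 have AL and MaSC arrays at overlapping levels.

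For each of the 9 genes, the most similar patterns among all genes tested were ranked by Pearson's r of log2 intensity over the 15 arrays, as a description, since arrays of 1 population are not independent points and share their sort. Wif1 lay closest to the basal keratin gene Krt5 (r = 0.971), Dkk3 to Irx4 (0.975), Sfrp1 to Osbpl6 (0.985) and Lgr5 to Slc2a13 (0.983). Lgr4 lay closest to Dclk1 (0.961) and Lgr6 to Zfp36l2 (0.987), with Itga8 (0.98) and Sparc (0.977), a matrix protein gene with means of 7880 in LPs and 234 in MLs, next. Fzd1 lay closest to Kirrel and Sulf1 (both 0.978), and Fzd7 to Znrf3 (0.879). Axin2 lay closest to Hunk (0.965), Nxn (0.965) and Boc (0.959). Hunk, a kinase gene, had means of 1210 in ALs, 183 in ALPs, 1820 in MaSCs, 60.7 in LPs and 25.2 in MLs. Among the 9 genes themselves, the closest pairs were Wif1 with Dkk3 (r = 0.97) and Fzd1 with Sfrp1 (0.95), and the least alike were Lgr6 with Dkk3 (0.41).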

How the data were processed

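RNA from 15 sorted samples (5 populations, 3 arrays each) was extracted with RNeasy columns, amplified with the NuGEN Ovation V2 system and hybridised to Mouse Genome 430 2.0 arrays. The deposited values are linear intensities, 1 for each of 45101 probe sets, which the authors normalised across arrays with dChip. Neither the dChip version nor its expression model and baseline array is stated in the sources used here. Such model-based values can fall to near 0 for dim probe sets, and 659 values were 0. Intensities under 1 were set to 1, log2 was taken, and no further normalisation was applied. No counts lie behind these values, and the 3 arrays per population limit the precision.

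Symbols came from GEO's platform annotation: 34945 probe sets had 1 symbol, 932 several and 9160 none, and 64 were controls. Each gene took its brightest single-symbol probe set. Genes above the array median on at least 3 arrays were fitted with limma 3.58.1 (R 4.3.3) in 1 model of all 5 populations, with Benjamini-Hochberg adjustment over 12107 genes in each of 10 comparisons, a threshold of 0.05 and 95% confidence intervals. Besides the 9 genes, the text names genes from the 3 nearest to each by Pearson's r, the first or more, up to 4 genes with the largest differences from each of 3 Wnt lists, with Rnf43, Znrf3, Rspo2, Rspo3, Rspo4 and Ctnnb1 added for their role after their values were seen. The members and lists were chosen with earlier results of these data known. Alternatives were 16 added to each intensity, no filter, the filter applied before the choice of probe set, median centring, quantile normalisation, the mean of a gene's probe sets, other probe sets, fits of 2 populations, array weights, trend and robust variance, the replicate number as a block, and leaving out each array. The fit was tested on simulated data. Promoter windows are those of RefSeq on GRCm38.p6, and 6 of the 9 genes matched. The markers, lists and folds of genes below the array median are described with the results.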

Additional observations from a re-analysis of the deposited data

How the results depend on the processing

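Of 90 differences (9 genes, 10 comparisons), 52 passed the test, 33 of them in every alternative tried and 19 not in some, and 0 changed sign. The 52 and the 33 include the differences of Lgr5 and Wif1 between MaSCs and the other populations. These passed in every alternative, but they were built into the selection by the filter and are no sign of stability. Of the 38 that did not pass, 12 changed sign in some alternative. The number of the 9 genes that passed was 1 for AL minus ALP, 0 for ALP minus LP and 3 for ALP minus MaSC with only the 2 populations compared in the fit, against 3, 1 and 7. With array weights it was 5 for AL minus ALP, 2 for ALP minus LP and 7 for LP minus ML, against 3, 1 and 4. The counts over all 12107 genes moved too. In fits of 2 populations they were 4 for ALP minus LP and 1339 for ALP minus MaSC. With array weights they were 7353 for AL minus ALP and 4205 for ALP minus LP. The main fit gave 915 for ALP minus LP, 4649 for ALP minus MaSC and 4830 for AL minus ALP. Leaving out 1 array at a time gave 2 to 5 (AL minus ALP), 5 to 6 (AL minus MaSC), 3 to 4 (AL minus LP), 5 to 8 (AL minus ML), 5 to 8 (ALP minus MaSC), 0 to 2 (ALP minus LP), 6 to 7 (ALP minus ML), 6 to 7 (MaSC minus LP), 9 to 9 (MaSC minus ML) and 4 to 6 (LP minus ML). Over all genes, ALP minus LP then gave 258 without LP replicate 2 and 1982 without ALP replicate 1. Deviations from the population means had r of -0.0119 to 0.174 in 9 pairs of arrays with the same replicate number. Of these, the pair of MaSC and ML replicate 3 (-0.0119) was the only one below 0. The 18 other pairs had r of -0.123 to 0.0823, with both signs. Whether arrays with the same number share a suspension was not settled by these values. The fit with the replicate number as a block covered the MaSC, LP and ML arrays. There 6 genes passed for MaSC minus LP, 9 for MaSC minus ML and 4 for LP minus ML, as in the main fit. ALs and ALPs lay outside the block and were set against the replicate 1 level of these populations. Their counts against these populations therefore do not measure pairing. Of the 9 genes, 4 passed for AL minus ML and 0 for ALP minus LP. Over all genes 164 passed for ALP minus LP and 2495 for ALP minus MaSC, against 915 and 4649.

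All signs that changed were of differences that had not passed. With median centring, AL minus LP was 0.01 for Lgr6 and ALP minus LP was -0.09 for Fzd1 and -0.1 for Fzd7. With the mean of a gene's probe sets, Lgr6 was 0.22 for AL minus LP and 0.17 for AL minus MaSC, and Fzd1 was -0.02 for ALP minus LP. With array weights, AL minus MaSC was -0.2 for Axin2, AL minus ALP was -0.07 for Fzd7, and ALP minus LP was -0.21 for Fzd1 and -0.32 for Sfrp1. With the replicate block, which set ALs and ALPs against the replicate 1 level of LPs, AL minus LP was -0.09 for Lgr4. ALP minus LP was 0 for Fzd1 in that fit. The second probe sets gave 0.52 and 0.5 for Lgr6 (AL minus LP, AL minus MaSC) and -0.13 for Fzd1 (ALP minus LP). With 1 array left out at a time, the differences that changed sign ran over -0.03 to 0.09 for Fzd7 and -0.11 to 0.2 for Lgr6 (AL minus ALP), -0.04 to 0.3 for Axin2 (AL minus MaSC), -0.05 to 0.08 for Lgr4 and -0.15 to 0.01 for Lgr6 (AL minus LP), -0.29 to 0.02 for Lgr6, -0.18 to 0.27 for Fzd1, -0.02 to 0.14 for Fzd7 and -0.17 to 0.96 for Sfrp1 (ALP minus LP), -0.02 to 0.17 for Lgr6 (MaSC minus LP), and -1.11 to 0 for Dkk3 (LP minus ML).

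Scaling moved the split of calls over all genes: 57.5% of those between ALPs and MLs were higher in ALPs, against 18.6% with median centring and 37% with quantile normalisation, and 47% of those between ALs and ALPs were higher in ALs, against 74% and 59.9%. Median centring moved the median of all genes by up to -0.41 (ALP minus ML), and Lgr4 then no longer passed there. Counts over all genes were 1617 for ALP minus LP and 7837 for ALP minus ML with median centring, 4 for ALP minus LP, 2740 for ALP minus ML and 1339 for ALP minus MaSC in fits of 2 populations, and 7353 for AL minus ALP and 4205 for ALP minus LP with array weights, against 915, 4442, 4649 and 4830 for ALP minus LP, ALP minus ML, ALP minus MaSC and AL minus ALP. Where levels lay below the array median, signal limited what could be measured, and 3 arrays per population limited the precision. The causes of these changes were not tested.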

Other observations

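Several receptors of the pathway ran against the 9 genes, with their highest levels in MLs and their lowest in ALs. Fzd4, a Frizzled receptor that also binds the non-Wnt ligand norrin, had intensities of 268.4, 279 and 201.4 in ALs, 985, 1326 and 2849 in ALPs, 2055, 1508 and 1495 in MaSCs, 648.2, 789.7 and 1113 in LPs, and 2843, 2807 and 2925 in MLs. All AL arrays lay below every other array. In ALs Fzd4 was 11.6-fold lower than in MLs (adjusted p = 5e-06), and lower than in ALPs (log2 difference -2.65, adjusted p = 9.78e-05), MaSCs (-2.75, 3.03e-05) and LPs (-1.75, 0.00125). Ror2, a receptor for Wnt5a, lay below the array median on all 3 AL arrays (125.1, 139.8 and 94.6), against 1737, 1627 and 1920 in MLs, at least 11.6-fold lower in ALs than in MLs (adjusted p = 4.51e-05). Its relative Ror1 ran the other way, with 2007, 1314 and 1726 in ALs and 40.8, 42.5 and 169.5 in MLs, 24.9-fold higher in ALs (adjusted p = 2.14e-05, or at least 12.1-fold without ML replicate 3, when the remaining ML arrays were below their medians).

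ALPs stood out from ALs in other genes of the lists. Procr, the protein C receptor, which marks a subset of basal cells in the mouse gland, had 822.5, 1081 and 1425 in ALs, 3151, 5697 and 9099 in ALPs, 2174, 2605 and 4078 in MaSCs, 3206, 2144 and 2085 in LPs, and 280.9, 78 and 155.4 in MLs. It was lower in ALs than in ALPs (-2.34, adjusted p = 0.00244), and 16.1-fold higher in LPs than in MLs (5.87e-05). Frzb, a secreted Frizzled-related protein, had 92.1, 13.8 and 25.4 in ALs and 390.9, 335.3 and 313.7 in ALPs, where it lay above every array of the other populations (AL minus ALP, adjusted p = 0.00853), and all 3 AL arrays were below the array median. Procr is also expressed by endothelial cells, and the endothelial markers had means of 7.32 to 7.62 in ALs and 8.06 to 11.08 in ALPs. Their part in these values was not tested. Ctnnb1, the gene of β-catenin itself, passed in 0 of the 10 comparisons, with means of 11900 in ALs, 11800 in ALPs, 11500 in MaSCs, 12500 in LPs and 12000 in MLs.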
